A study of Homo sapiens with 16 samples.

Results

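Heat shock protein and co-chaperone genes were followed in U2OS cells, an established human osteosarcoma line, 6 h after compound was added. The set holds 10 of the 25270 genes in the expression matrix, taken by gene symbol: HSF1, the chaperone genes HSPA1A, HSPA1B, HSPA8, HSPH1, HSP90AA1, HSPB1 and HSPE1, and the co-chaperone genes DNAJB1 and BAG3. Cells received T5, T4 or CPT, each at 0.5, 2, 5, 10 and 20 µM with 1 library per dose, or DMSO, the solvent, with 1 library. The series title speaks of an APA modulator, APA being the usual short form of alternative polyadenylation, and the labels expand none of the 3 compound names. All 16 libraries come from this 1 cell line, and no label calls them separate cultures. A p-value here reflects only how single libraries scatter around a fit, which may be technical, and that scatter includes any departure from the fit. Levels are in FPKM, which divides fragments by the length of the transcript and the depth of the library, so levels of different genes can be set side by side.

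Cells of animals answer unfolded protein with the heat shock response, in which the transcription factor HSF1 is released from chaperones, forms trimers and binds heat shock elements in the promoters of chaperone genes. HSP70 proteins then bind and release unfolded stretches in a cycle driven by ATP: J-domain proteins such as DNAJB1 start ATP hydrolysis, and exchange factors such as BAG3 and HSPH1 free the ADP. HSP90 holds clients at a late stage of folding, small heat shock proteins such as HSPB1 hold unfolded protein in solution, and HSPE1 is the lid of the mitochondrial chaperonin.

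The promoters of 4 members are shown because their RNAs moved as 2 pairs, BAG3 with DNAJB1 and HSPA8 with HSPH1, and because these windows differ in their heat shock elements. Each is the 250 bases before the annotated gene start, from RefSeq on GRCh38.p14, written 5′ to 3′ on the strand of the gene, with every match to GAANNTTC or TTCNNGAA in capitals. BAG3 lies at chr10:119651130-119651379 on the plus strand, DNAJB1 at chr19:14518398-14518647, HSPA8 at chr11:123062137-123062386 and HSPH1 at chr13:31162389-31162638, all 3 on the minus strand.
BAG3: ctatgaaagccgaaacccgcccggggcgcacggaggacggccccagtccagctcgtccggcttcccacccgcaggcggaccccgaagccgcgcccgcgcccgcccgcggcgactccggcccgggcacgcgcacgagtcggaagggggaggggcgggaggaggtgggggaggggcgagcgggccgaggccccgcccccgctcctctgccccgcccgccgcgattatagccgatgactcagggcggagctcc
DNAJB1: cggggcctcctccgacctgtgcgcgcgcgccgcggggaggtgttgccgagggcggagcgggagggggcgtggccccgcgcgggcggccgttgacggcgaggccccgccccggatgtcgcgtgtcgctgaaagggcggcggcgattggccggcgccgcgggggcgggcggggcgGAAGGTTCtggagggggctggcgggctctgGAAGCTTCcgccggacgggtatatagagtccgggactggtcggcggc
HSPA8: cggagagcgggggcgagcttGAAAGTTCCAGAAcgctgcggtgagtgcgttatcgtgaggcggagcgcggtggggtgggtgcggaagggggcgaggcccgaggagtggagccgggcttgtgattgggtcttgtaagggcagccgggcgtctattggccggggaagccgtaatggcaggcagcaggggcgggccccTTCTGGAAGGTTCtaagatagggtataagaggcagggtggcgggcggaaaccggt
HSPH1: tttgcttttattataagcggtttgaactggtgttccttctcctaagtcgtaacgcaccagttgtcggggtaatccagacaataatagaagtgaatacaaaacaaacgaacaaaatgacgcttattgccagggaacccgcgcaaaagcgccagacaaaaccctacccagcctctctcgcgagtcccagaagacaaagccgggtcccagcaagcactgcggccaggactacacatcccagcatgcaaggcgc
The DNAJB1 window is 1 of 3 that RefSeq gives for the gene, and its matches start 77 and 47 bases before the gene start. In HSPA8 the matches overlap in pairs, giving 3 alternating units in a row at 2 places, the first letters of which lie 230 and 55 bases before the start. The windows of BAG3 and HSPH1 hold no match. Both motifs read the same on either strand, and matches may overlap each other.

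Of the 10 members, 9 have such a window in the table, HSF1 being the exception. These genes have 12 windows, since DNAJB1 has 3 and HSP90AA1 has 2, and each of these 2 genes has a match in 1 window. A match was found in 6 of the 12 windows, 1 each of HSPA1A, HSPA1B, HSPA8, HSP90AA1, HSPB1 and DNAJB1, against 11.6% of all 34943 promoter windows of the same length. A run of 3 such units was found in 2 of the 12, those of HSPA8 and HSP90AA1, against 0.441% of all windows. A match describes letters in a window, not a bound site.

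HSPA1A and HSPA1B, the near-identical genes of stress-inducible HSP70, were listed at 0 in all 16 libraries. All 34 of their protein-coding neighbours on chromosome 6 that are in the matrix were also listed at 0 throughout, against 7.81% of all protein-coding genes that could be placed. These zeros can be failed estimates, so no level of HSPA1A or HSPA1B is given. The other 8 members had a mean FPKM of at least 1, the minimum set for testing, which 10600 genes reached.

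In DMSO the constitutive HSP70, HSPA8, was the most abundant member at 342.6 FPKM, above 99.45% of tested genes. HSP90AA1 had 180.2 FPKM, HSPB1 112.6 FPKM and HSPE1 96.3 FPKM. HSF1 followed at 47.9 FPKM, HSPH1 at 37.0 FPKM and DNAJB1 at 34.1 FPKM. BAG3 was the lowest at 8.43 FPKM, close to the middle of the tested genes, of which 48.77% were lower. Over all 16 libraries the ranges of neighbours in this order overlapped, except for HSPE1 and HSF1. HSPE1 was above HSF1, and DNAJB1 above BAG3, in 16 of 16 libraries, while HSF1 was above HSPH1 in 10 and HSPH1 above DNAJB1 in 11. The plot of FPKM by dose shows the 8 genes in every library.

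**Figure D1:**
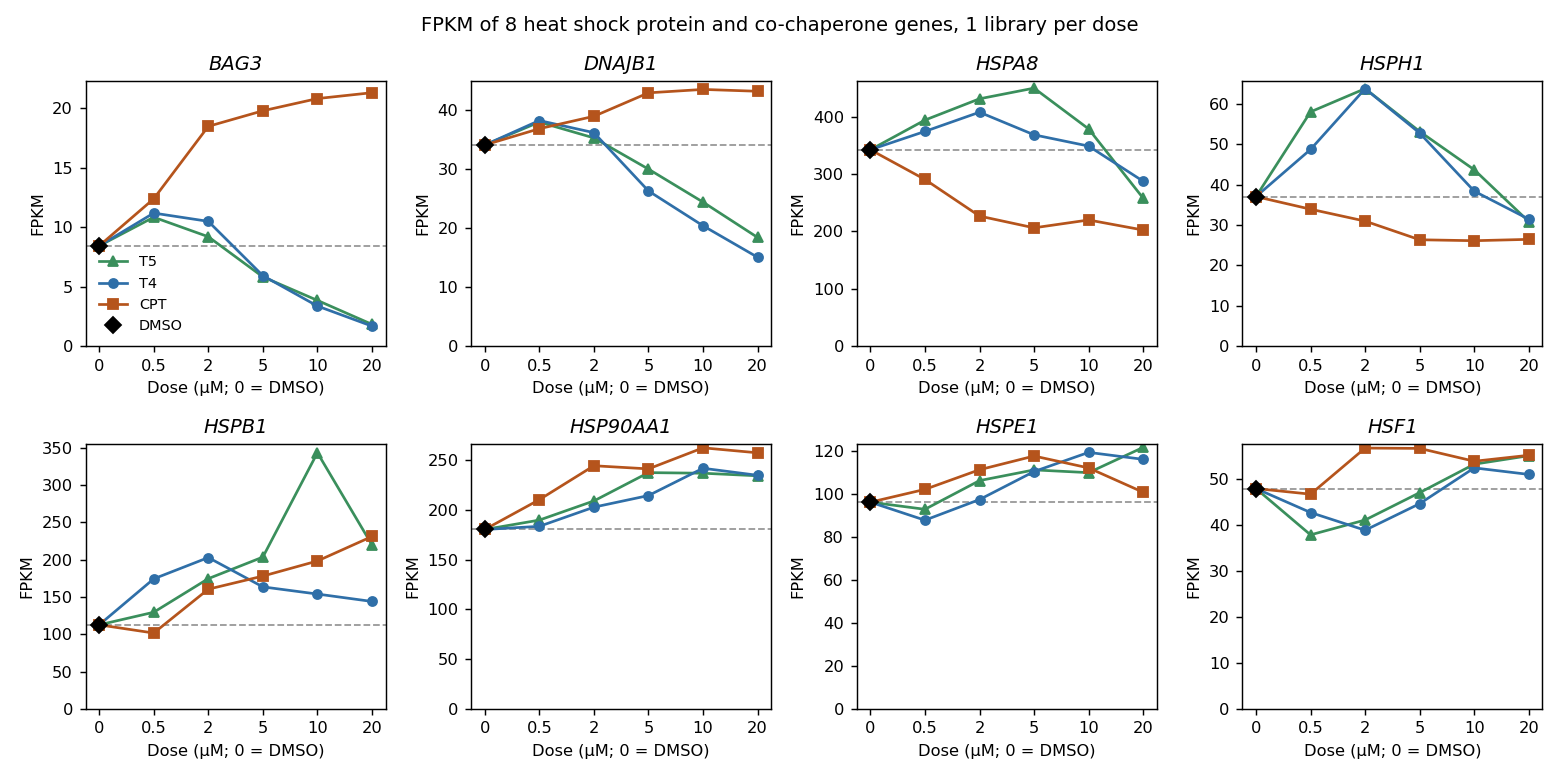
FPKM (vertical axis, from 0) of 8 heat shock protein and co-chaperone genes against dose in µM (horizontal axis, 0 being the DMSO library), with 1 library per point and 1 line per compound, all 3 lines starting from the same DMSO library shown as a dashed line. BAG3 was at 1.83 and 1.68 FPKM at 20 µM T5 and T4 and reached 21.3 FPKM at 20 µM CPT, while HSPA8 and HSPH1 were above DMSO at 4 of 5 doses of T5 and of T4 and below it at all 5 CPT doses.

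Changes with dose were tested with limma on log2(FPKM + 1), as a slope over the 5 libraries of a compound and DMSO, scaled to the fitted change between 0 and 20 µM. Errors after ± are standard errors of these fits over 6 libraries. Adjusted p-values are Benjamini-Hochberg values from limma over all tested genes, with a call at 0.05. With CPT 4 of the 8 members rose (BAG3, HSPB1, HSP90AA1 and DNAJB1) and 2 fell (HSPA8 and HSPH1), where 43.8% of all tested genes were called, 17.9% higher and 25.8% lower. With T4 the members HSP90AA1 and HSPE1 rose and BAG3 and DNAJB1 fell, where 46.9% of genes were called, 14.5% higher and 32.4% lower. With T5 HSPB1, HSP90AA1 and HSPE1 rose and BAG3 and DNAJB1 fell, where 52.7% of genes were called, 18.2% higher and 34.5% lower. The share of members called was 6 of 8, 4 of 8 and 5 of 8, and that of T4 and T5 was near the share of all genes. The members' median change was 0.30 with CPT, -0.04 with T4 and 0.04 with T5, and that of all tested genes was -0.14, -0.27 and -0.29. The 3 trends share the DMSO library. On a linear dose scale the falls of BAG3 and DNAJB1 with T4 and T5 were the only member calls. Of all tested genes 13.5% were then called with T4, 12.5% lower, and 5.36% with T5, 5.14% lower. With CPT 0 of the 10600 genes were called on that scale. Without the 10 µM CPT library every CPT call of a member was lost, where 1 of 10600 genes was called.

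The median of log2(FPKM + 1) over tested genes was below that of DMSO in every treated library, by a shift between -0.05 and -0.63, so small changes were also read on other scalings. The median of all genes' changes became 0.31, 0.38 and 0.38 for CPT, T4 and T5 once library medians were set equal. On that scale the called members were 6 higher and 0 lower with CPT, 3 and 1 with T4, and 4 and 0 with T5. Of all tested genes 33.7% were then higher and 15.5% lower with CPT, 40.5% and 17.4% with T4, and 41.4% and 18.8% with T5. With quantile normalization the members were 2 higher and 3 lower with CPT, 0 and 2 with T4, and 1 and 2 with T5. All tested genes were then 22.1% higher and 18.0% lower with CPT, 26.5% and 19.8% with T4, and 28.4% and 22.1% with T5. The sign of BAG3 and DNAJB1 was kept on all 3 scalings, while that of HSP90AA1 turned, as given with each gene.

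BAG3, the exchange factor that hands HSP70 clients to autophagy, rose with CPT dose and fell with T4 and T5. From 8.43 FPKM in DMSO its series was 10.8, 9.20, 5.82, 3.84 and 1.83 FPKM at the 5 rising doses of T5. With T4 the series was 11.2, 10.5, 5.92, 3.37 and 1.68 FPKM, and with CPT it was 12.4, 18.5, 19.8, 20.8 and 21.3 FPKM. The 2 lowest doses of T5 and T4 were above DMSO, and their 20 µM libraries were the lowest of all. All 5 CPT libraries were above DMSO and above every T5 and T4 library. The level at 20 µM was 0.217 times that of DMSO with T5, 0.199 times with T4 and 2.53 times with CPT. BAG3 rose with CPT dose by 1.20 ± 0.24 (limma adjusted p = 0.0136), and fell by 1.96 ± 0.47 with T4 (limma adjusted p = 0.0148) and by 1.81 ± 0.41 with T5 (limma adjusted p = 0.0113). In 1 fit of all 16 libraries the CPT change was 0.64 and was not called (limma adjusted p = 0.0669). The T4 call was lost with quantile normalization (adjusted p = 0.0709) and without the 0.5, 10 or 20 µM library (adjusted p between 0.0535 and 0.0752 in limma), and the T5 call with equal medians (adjusted p = 0.0668) and quantile normalization (adjusted p = 0.0943), with the direction kept each time.

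The BAG3 ranges of T4 and of T5 did not overlap that of CPT: it was lower in T4 than in CPT, and lower in T5 than in CPT, at 5 of 5 matched doses. The gap widened with dose. The T4 level was 0.903 times that of CPT at 0.5 µM, 0.568 times at 2 µM and 0.0788 times at 20 µM, and the T5 level was 0.875, 0.498 and 0.0858 times that of CPT. The mean difference over the 5 doses, tested with dose as a block over 10 libraries, was -1.57 ± 0.41 for T4 minus CPT (limma adjusted p = 0.0141) and -1.57 ± 0.38 for T5 minus CPT (limma adjusted p = 0.011). Of the 8 members 6 were called for T4 minus CPT, 2 higher and 4 lower, where 65.2% of all tested genes were called, 28.3% higher and 36.9% lower. For T5 minus CPT 5 were called, 2 higher and 3 lower, where 62.5% of genes were called, 25.0% higher and 37.6% lower.

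DNAJB1, the J-domain partner of cytosolic HSP70, followed BAG3 at a smaller scale. From 34.1 FPKM in DMSO its series was 38.0, 35.3, 30.0, 24.4 and 18.4 FPKM at rising doses of T5. It was 38.2, 36.2, 26.3, 20.4 and 15.1 FPKM with T4, and 36.8, 39.0, 42.9, 43.5 and 43.2 FPKM with CPT. At 0.5 µM the 3 compounds lay close together and above DMSO, and at 2 µM and more the T5 and T4 libraries were below every CPT library. DNAJB1 rose by 0.36 ± 0.10 with CPT (limma adjusted p = 0.0337), a call lost in 5 of the 6 fits that left out 1 library and with quantile normalization, and at 0.01 in 1 fit of all 16 libraries. It fell by 1.20 ± 0.25 with T4 (limma adjusted p = 0.00919) and by 0.87 ± 0.21 with T5 (limma adjusted p = 0.0139). With equal library medians neither fall was called, at -0.56 for T4 (limma adjusted p = 0.12) and -0.20 for T5 (limma adjusted p = 0.559), and the T5 call was also lost without the 20 µM library (adjusted p = 0.0626). Over matched doses the difference was -0.65 ± 0.23 for T4 minus CPT (limma adjusted p = 0.0394) and -0.52 ± 0.18 for T5 minus CPT (limma adjusted p = 0.0398). Both calls were lost without the 5, 10 or 20 µM libraries, with quantile normalization, and with no filter on low genes, with adjusted p between 0.0515 and 0.115 in limma, and the T5 call with equal medians (limma adjusted p = 0.108).

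HSPA8, the HSP70 that unstressed cells use for folding and for uncoating clathrin vesicles, fell with CPT. From 342.6 FPKM in DMSO its series was 394.4, 431.5, 450.1, 378.9 and 258.0 FPKM at rising doses of T5. It was 374.6, 408.1, 368.6, 349.0 and 287.6 FPKM with T4, and 290.8, 226.9, 206.4, 220.1 and 202.5 FPKM with CPT. With T5 and T4 the 20 µM library was below DMSO and the other 4 were above it, while every CPT library was below DMSO. HSPA8 fell by 0.73 ± 0.15 with CPT dose (limma adjusted p = 0.0144). That call was lost with equal library medians, at -0.28 (limma adjusted p = 0.156), and without DMSO (adjusted p = 0.051). No straight trend was called with T4, at -0.22 ± 0.17 (limma adjusted p = 0.301), or T5, at -0.27 ± 0.29 (limma adjusted p = 0.467), and both signs turned with equal medians. With quantile normalization both falls were called, at -0.76 for T4 (limma adjusted p = 0.00384) and -0.95 for T5 (limma adjusted p = 0.0066).

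HSPH1, the HSP110 chaperone that serves HSP70 as an exchange factor, had the same order of compounds. From 37.0 FPKM in DMSO its series was 58.0, 63.8, 53.1, 43.7 and 30.8 FPKM at rising doses of T5. It was 48.7, 63.7, 52.8, 38.4 and 31.4 FPKM with T4, and 33.9, 31.0, 26.3, 26.1 and 26.4 FPKM with CPT. The level at 2 µM was 1.72 times that of DMSO with T5 and with T4, and at 20 µM both were below DMSO. HSPH1 fell by 0.52 ± 0.12 with CPT dose (limma adjusted p = 0.0177), a call lost with equal library medians, at -0.07 (limma adjusted p = 0.693), and in 1 fit of all 16 libraries it was -1.16 (limma adjusted p = 0.00281). The T4 and T5 trends, -0.30 ± 0.37 (limma adjusted p = 0.523) and -0.35 ± 0.39 (limma adjusted p = 0.477), were not called, both signs turned with equal medians, and without DMSO the T5 fall was called at -1.11 (limma adjusted p = 0.0237).

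At matched doses HSPA8 and HSPH1 were the members called higher in T4 and T5 than in CPT, at 5 of 5 doses each. HSPA8 differed by 0.64 ± 0.08 for T4 minus CPT (limma adjusted p = 0.000792) and by 0.72 ± 0.12 for T5 minus CPT (limma adjusted p = 0.00216). HSPH1 differed by 0.66 ± 0.12 for T4 minus CPT (limma adjusted p = 0.00373) and by 0.74 ± 0.12 for T5 minus CPT (limma adjusted p = 0.00212). The gap was widest at 2 and 5 µM for both genes: HSPH1 in T4 was 1.44 times its CPT level at 0.5 µM, 2.06 times at 2 µM, 1.47 times at 10 µM and 1.19 times at 20 µM. These differences, and those of BAG3, were called under every alternative run for the matched doses.

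**Figure D2:**
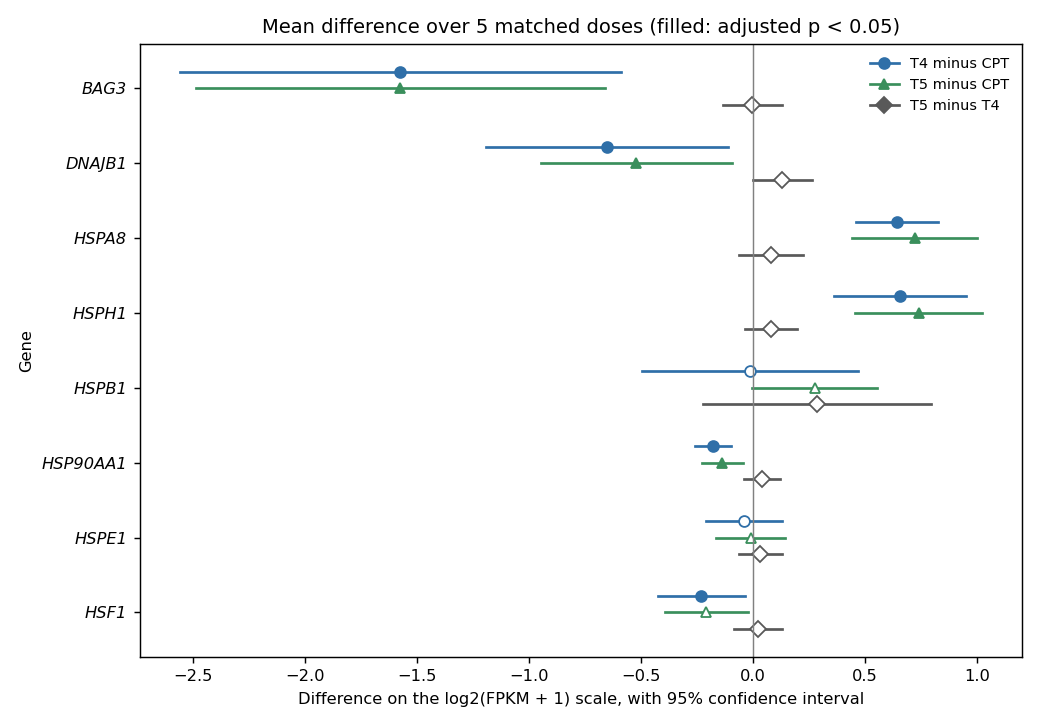
Mean difference in log2(FPKM + 1) over the 5 matched doses (horizontal axis, with 95% confidence interval) for each gene (vertical axis), as T4 minus CPT, T5 minus CPT and T5 minus T4, filled where limma's adjusted p was under 0.05. HSPA8 and HSPH1 lie to the right of 0 and BAG3, DNAJB1 and HSP90AA1 to the left for T4 and T5 minus CPT, and no T5 minus T4 difference is filled.

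Bending of the dose curve was tested with a squared dose term, an alternative added after the curves had been seen. The value is the height of the fitted curve at mid-scale over the mean of its ends. It is positive for a hump, and also for a rise that levels off or a fall that steepens. A positive call alone therefore does not show a rise and fall. With T4 the term was called and positive for 5 of 8 members, where 28.5% of tested genes were called, 11.3% positive and 17.1% negative. With T5 it was called and positive for 4 of 8, where 36.0% were called, 10.6% positive and 25.4% negative. With CPT it was called for BAG3 alone, at 0.45 ± 0.09 (limma adjusted p = 0.0394), where 17.9% were called, 7.97% positive and 9.92% negative. BAG3 rose at every CPT dose step and levelled off, with no fall. HSPH1 had the height 0.78 ± 0.12 with T4 (limma adjusted p = 0.00544) and 0.84 ± 0.09 with T5 (limma adjusted p = 0.00428). HSPA8 had 0.33 ± 0.07 with T4 (limma adjusted p = 0.0179) and 0.60 ± 0.09 with T5 (limma adjusted p = 0.00793). In BAG3 and DNAJB1 the same term describes a level held at low doses and lost at high doses, with heights of 0.96 ± 0.16 and 0.50 ± 0.10 for T4 and of 0.83 ± 0.12 and 0.42 ± 0.06 for T5. HSPB1 was the fifth gene with T4, at 0.56 ± 0.14 (limma adjusted p = 0.029), a call lost with no filter (adjusted p = 0.111) and with quantile normalization (adjusted p = 0.103). The T4 call of HSPA8 was also lost without the 5 µM library (limma adjusted p = 0.0558) and without the 20 µM library (limma adjusted p = 0.0583). Where the 2 µM library was left out, 1 member was called with T4 and 0 with T5 or CPT, and the share of all genes called dropped too, to 5.96% with T4, 3.27% with T5 and 0% with CPT. Without DMSO 2 were called with T4 (HSPH1 and BAG3), and without 20 µM 2 with T5 (HSPH1 and BAG3). The CPT call of BAG3 was lost in 5 of 6 fits without 1 library.

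HSPB1, or HSP27, rose with CPT and T5. From 112.6 FPKM in DMSO its series was 129.5, 174.6, 203.5, 343.4 and 219.9 FPKM at rising doses of T5. It was 174.3, 202.9, 163.5, 153.9 and 144.0 FPKM with T4, and 101.6, 160.4, 178, 198.3 and 231.1 FPKM with CPT. All 10 T5 and T4 libraries and 4 of 5 CPT libraries were above DMSO. The 10 µM T5 library stood highest, at 3.05 times DMSO. The rise was 1.16 ± 0.16 with CPT (limma adjusted p = 0.0105) and 1.31 ± 0.30 with T5 (limma adjusted p = 0.0126, and 0.059 without DMSO). With T4 it was 0.14 ± 0.29 (limma adjusted p = 0.708), a sign that turned with quantile normalization. No mean difference between compounds over the matched doses was called, the intervals being -0.49 to 0.47 for T4 minus CPT, -0.00 to 0.55 for T5 minus CPT and -0.22 to 0.80 for T5 minus T4. The T4 level was 1.72 times that of CPT at 0.5 µM and 0.623 times at 20 µM, so the T4 minus CPT mean averages over a crossing. The T5 minus CPT difference was called with equal medians, at 0.46 (limma adjusted p = 0.0101), and without the 20 µM libraries.

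HSP90AA1, the inducible cytosolic HSP90, was above DMSO in all 15 treated libraries. From 180.2 FPKM in DMSO its series was 189.7, 208.9, 237.4, 236.8 and 234.2 FPKM at rising doses of T5. It was 183.4, 202.7, 214.3, 241.8 and 234.7 FPKM with T4, and 210.2, 244.3, 241.2, 262.3 and 257.3 FPKM with CPT. The ranges of the compounds overlapped. The rises of 0.50 ± 0.12 with CPT (limma adjusted p = 0.0195), 0.45 ± 0.09 with T4 (limma adjusted p = 0.0072) and 0.43 ± 0.10 with T5 (limma adjusted p = 0.0112) turned to -0.06, -0.04 and -0.13 with quantile normalization. T4 and T5 levels were below those of CPT at 5 of 5 doses, with differences of -0.18 ± 0.03 for T4 minus CPT (limma adjusted p = 0.00376) and -0.14 ± 0.04 for T5 minus CPT (limma adjusted p = 0.0189), of which that of T5 turned to 0.05 with equal library medians. The T4 minus CPT call was lost with equal medians and with quantile normalization, the T5 minus CPT call without the 0.5, 2 or 10 µM libraries, and both without the dose block. The CPT trend was not called without DMSO or without the 0.5, 5 or 10 µM library, nor that of T5 without 10 µM (adjusted p between 0.0503 and 0.0774 in limma).

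HSPE1, or HSP10, had a narrow range over the 16 libraries. It lay between 93.0 and 121.9 FPKM with T5, between 87.9 and 119.5 FPKM with T4 and between 101.0 and 117.8 FPKM with CPT, against 96.3 FPKM in DMSO. It rose by 0.40 ± 0.11 with T4 (limma adjusted p = 0.0251) and by 0.35 ± 0.09 with T5 (limma adjusted p = 0.0178), the second turning to -0.06 with quantile normalization. The T4 call was lost without the 0.5, 5 or 10 µM library and the T5 call without the 10 or 20 µM library (limma adjusted p between 0.05 and 0.0844). The CPT trend was 0.13 ± 0.13 (limma adjusted p = 0.457), and was called at 0.58 with equal medians, at -0.31 with quantile normalization and at 0.27 in 1 fit of all 16 libraries. The T4 call was also lost with quantile normalization. HSPE1 differed by -0.04 for T4 minus CPT, with an interval of -0.21 to 0.13.

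HSF1, the factor that drives the response, lay between 37.8 and 56.6 FPKM at the RNA level. From 47.9 FPKM in DMSO its series was 37.8, 41.0, 47.0, 53.1 and 55.0 FPKM at rising doses of T5. It was 42.6, 38.8, 44.6, 52.3 and 50.9 FPKM with T4, and 46.6, 56.6, 56.6, 53.8 and 55.1 FPKM with CPT. With T5 and T4 the 3 lowest doses were below DMSO and the 2 highest above it. No trend was called, at 0.24 ± 0.12 for CPT (limma adjusted p = 0.161), 0.20 ± 0.17 for T4 (limma adjusted p = 0.354) and 0.36 ± 0.18 for T5 (limma adjusted p = 0.125). The CPT sign turned with quantile normalization, and in 1 fit of all 16 libraries the CPT rise was called at 0.51 (limma adjusted p = 0.00447). With equal library medians all 3 rises were called, at 0.69, 0.85 and 1.04, and without DMSO the T5 rise was called at 0.71 (limma adjusted p = 0.00314). HSF1 was lower in T4 than in CPT at 5 of 5 doses, with a difference of -0.23 ± 0.08 (limma adjusted p = 0.0429), and the interval for T5 minus CPT was -0.39 to -0.02 (limma adjusted p = 0.0525). The T4 call was lost in 4 of the 5 fits that left out a dose, with no filter, no dose block or either other scaling, and with p-values adjusted over all genes and the 3 pairs of compounds together, which it missed narrowly. The activity of HSF1, which is set on the protein, was not measured.

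**Figure D3:**
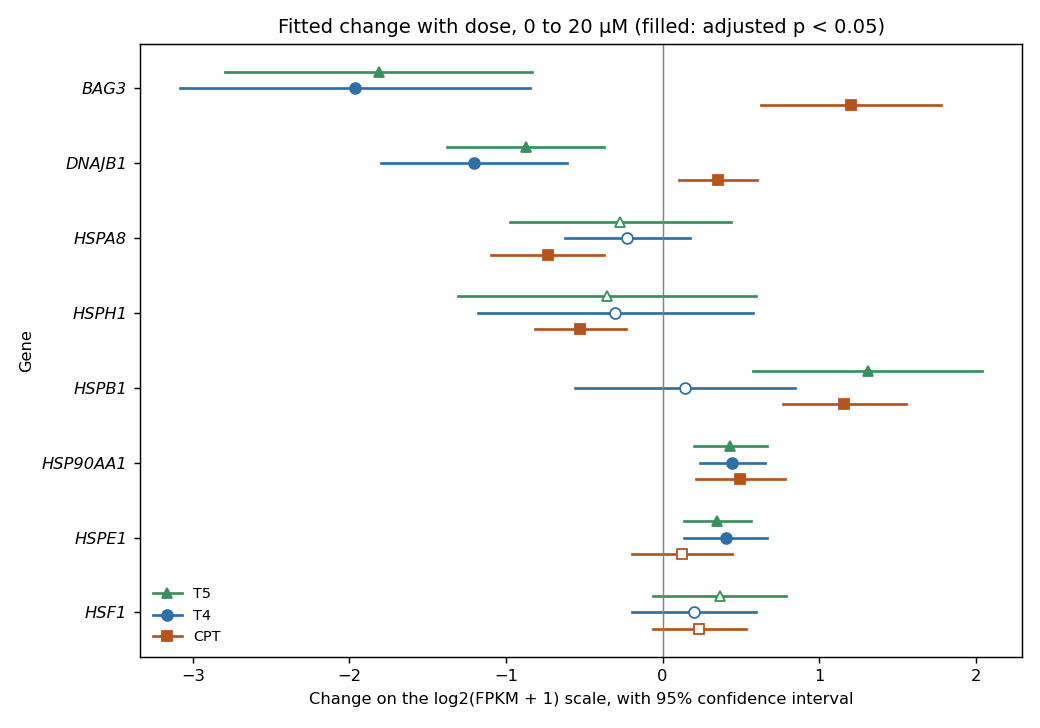
Fitted change in log2(FPKM + 1) between 0 and 20 µM (horizontal axis, with 95% confidence interval) for each gene (vertical axis) with T5, T4 and CPT, filled where limma's adjusted p was under 0.05. BAG3 and DNAJB1 lie to the left of 0 with T5 and T4 and to the right with CPT, at -1.81, -1.96 and 1.20 for BAG3.

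By their mean difference over matched doses, T4 and T5 were not told apart on any of the 8 members, where 32.5% of tested genes were called, 6.05% higher in T5 and 26.5% lower. At an unadjusted limma p under 0.05 the count was also 0 of 8. This mean difference cannot show a gap that changes sign with dose, and the T4 and T5 slopes were not tested against each other. HSPB1 in T5 was 0.743 times its T4 level at 0.5 µM and 2.23 times at 10 µM. BAG3 differed by -0.00 ± 0.06, with an interval of -0.13 to 0.13. The intervals for T5 minus T4 were -0.06 to 0.22 for HSPA8, -0.03 to 0.20 for HSPH1 and -0.00 to 0.26 for DNAJB1. With equal library medians 3 were called higher in T5, DNAJB1 by 0.23 (limma adjusted p = 0.014), HSPH1 by 0.18 (limma adjusted p = 0.0308) and HSP90AA1 by 0.14 (limma adjusted p = 0.034), where 24.7% of all genes were higher, and no interval shows that the compounds act alike. Over the 3 pairs of compounds, 24 differences were compared for the 8 members. Apart from HSF1, the calls were the same with p-values adjusted over all genes and 3 pairs together. The split of called members against CPT, 2 higher and 4 lower for T4 and 2 and 3 for T5, became 2 and 2 and 3 and 1 with equal medians, and 2 and 1 and 2 and 2 with quantile normalization. With equal medians 32.1% of all genes were higher and 28.4% lower for T4 minus CPT, and 37.6% and 23.8% for T5 minus CPT. With quantile normalization these shares were 32.4% and 29.6% for T4 minus CPT, and 34.2% and 28.9% for T5 minus CPT. The members' median difference was -0.11 for T4 minus CPT, -0.07 for T5 minus CPT and 0.06 for T5 minus T4, and that of all tested genes was -0.09, -0.10 and -0.06.

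In single libraries at 20 µM, with no test, 2 members were at least 2-fold higher than DMSO with CPT (BAG3 and HSPB1) and 0 lower, where 6.12% of genes were higher and 21.0% lower. With T4 0 were higher and BAG3 and DNAJB1 were lower, where 1.20% were higher and 22.9% lower. With T5 0 were higher and BAG3 was lower, where 2.44% were higher and 26.5% lower.

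Across the 16 libraries the members split by likeness. Pearson's r of log2(FPKM + 1) was 0.97 for DNAJB1 with BAG3 and 0.93 for HSPA8 with HSPH1, the 2 of 28 pairs above 0.8, and 18 pairs were below 0. HSF1 had r of -0.88 with HSPH1, -0.77 with HSPA8 and 0.78 with HSP90AA1. These values describe libraries that share doses and compounds, and carry no test. The genes most like each member were SYMPK, STUB1 and ITPA for HSF1 (r of 0.9751 to 0.9674), CALM2, HMGCS1 and NECAB1 for HSPA8 (0.9547 to 0.9527) and SUPT5H, RRAGB and SUGT1 for HSPH1 (0.9705 to 0.963). They were GNAS, PGAM1 and CLU for HSP90AA1 (0.9883 to 0.9869), MRPL41, DUT and C19orf60 for HSPB1 (0.962 to 0.9549) and RAB26, GLT8D2 and TAF15 for HSPE1 (0.9335 to 0.9289). They were ARMCX1, RGMB and FBXO5 for DNAJB1 (0.9763 to 0.9731) and CCDC127, MFSD5 and ATXN7L2 for BAG3 (0.9902 to 0.989).

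The HSP70 cycle was then followed through lists of its genes, which include the members. List genes said to rise, fall or differ had a limma adjusted p under 0.05. The list counts stand against the same shares of all tested genes as the members: 17.9% higher and 25.8% lower with CPT, 14.5% and 32.4% with T4, and 18.2% and 34.5% with T5. Counts with equal medians and with quantile normalization stand against the shares given above for those scalings. Of 10 tested exchange factors and HSP70 regulators, 4 rose and 2 fell with CPT, 1 rose and 5 fell with T4, and 2 rose and 4 fell with T5, with median changes of 0.68, -1.11 and -0.76. With equal medians the splits were 7 and 1, 3 and 3, and 3 and 2, and with quantile normalization 5 and 1, 2 and 2, and 3 and 2. At matched doses 0 were higher and 5 lower in T4 than in CPT, where 36.9% of all genes were lower. For T5 minus CPT 0 were higher and 5 lower, where 37.6% of genes were lower. HSPH1, also an exchange factor, is counted in the HSP70 and HSP110 list and not in this one. It was called higher than in CPT, by 0.66 with T4 and by 0.74 with T5. The T5 counts became 2 and 3 with equal medians, where 37.6% of genes were higher and 23.8% lower, and 1 and 3 with quantile normalization, where 34.2% were higher and 28.9% lower. BAG5, a BAG-domain exchange factor, had 9.235 FPKM in DMSO and then 11.6, 13.9, 10.3, 6.87 and 3.26 FPKM at rising doses of T5. It had 11.2, 13.1, 11.2, 6.545 and 3.58 FPKM with T4, and 18.3, 28.0, 24.8, 22.6 and 20.9 FPKM with CPT. It differed by -1.34 ± 0.22 for T4 minus CPT and by -1.34 ± 0.24 for T5 minus CPT. GRPEL1, the exchange factor of mitochondrial HSP70, differed by -1.43 ± 0.19 and -1.43 ± 0.14. BAG2, which inhibits the ubiquitin ligase CHIP, fell with all 3 compounds, by 2.36 ± 0.34 with CPT, by 2.54 ± 0.34 with T4 and by 2.54 ± 0.23 with T5.

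Of 22 tested J-domain genes, 2 rose and 11 fell with CPT, 2 rose and 14 fell with T4, and 2 rose and 12 fell with T5, where 25.8%, 32.4% and 34.5% of all genes fell. With equal library medians the falls were 9, 7 and 6 and the rises 4, 4 and 5, where 15.5%, 17.4% and 18.8% of genes fell. With quantile normalization the falls were 10, 11 and 10 and the rises 0, 2 and 2, where 18.0%, 19.8% and 22.1% of genes fell. DNAJC2, a ribosome-bound J-domain protein, fell by 2.46 ± 0.40 with CPT. DNAJA2, a cytosolic partner of HSP70, fell by 2.10 ± 0.28 with CPT, by 2.27 ± 0.46 with T4 and by 2.18 ± 0.36 with T5. On the log2(FPKM + 1) scale DNAJB5, a relative of DNAJB1, had the largest differences from CPT among the J-domain genes. It had 16.5 FPKM in DMSO and 6.29, 5.63, 6.66, 6.00 and 4.02 FPKM at rising doses of T5. It had 8.78, 5.04, 4.49, 4.45 and 3.88 FPKM with T4, and 22.0, 23.5, 23.5, 21.8 and 19.1 FPKM with CPT. Its difference was -1.91 ± 0.14 for T4 minus CPT and -1.79 ± 0.08 for T5 minus CPT. DNAJB9, a J-domain protein of the endoplasmic reticulum, differed by -1.41 ± 0.12 and -1.62 ± 0.15, and its low FPKM makes these differences appear smaller on that scale.

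**Figure D4:**
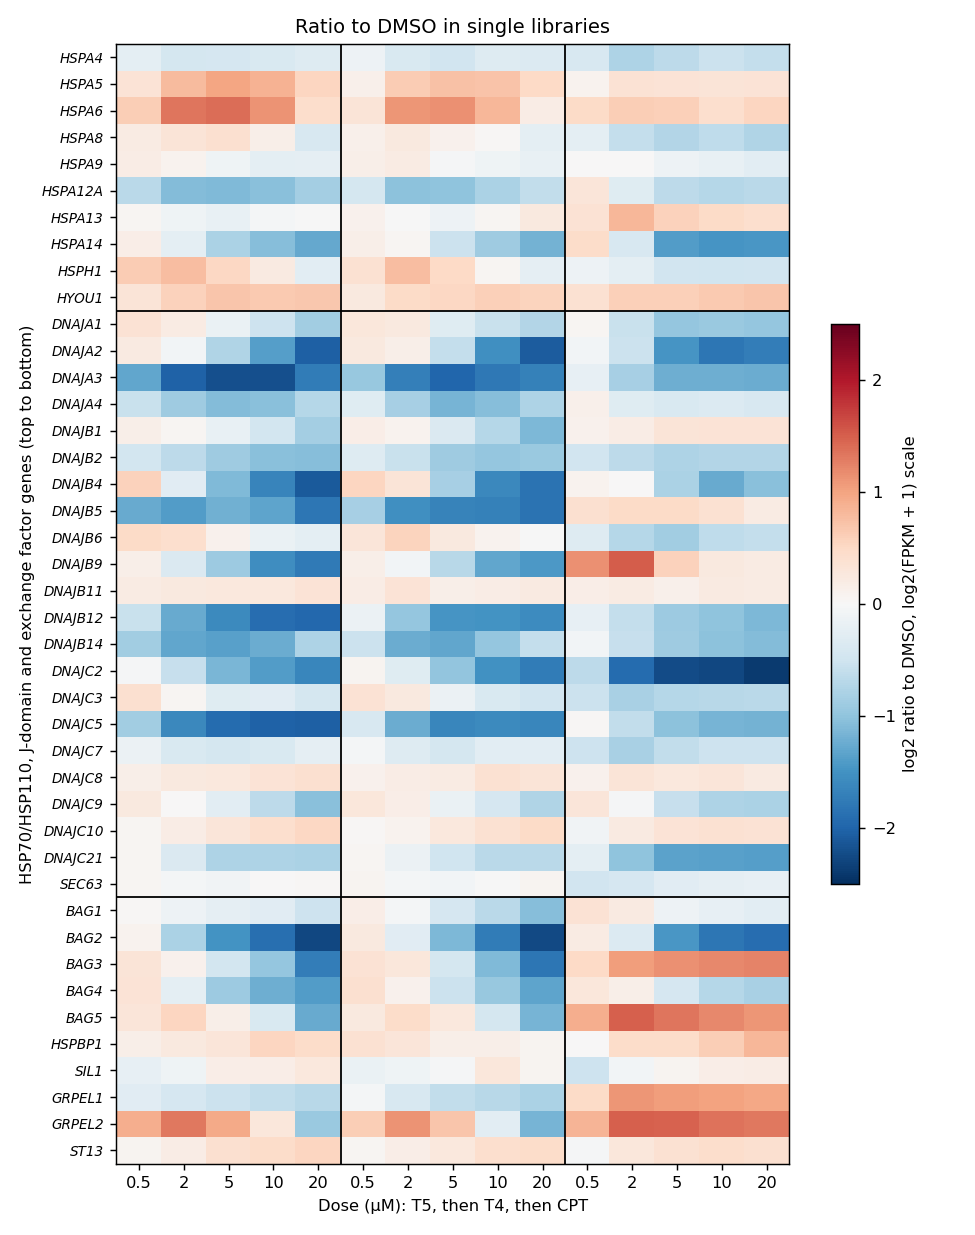
Log2 ratio to DMSO on the log2(FPKM + 1) scale (colour) for tested HSP70 and HSP110, J-domain and exchange factor genes (vertical axis, in 3 blocks) in each treated library (horizontal axis, doses in µM within T5, T4 and CPT). BAG3 and BAG5 are blue at 20 µM T5 and T4, and BAG3, BAG5 and GRPEL1 are red with CPT, while DNAJA2 and BAG2 are blue at high doses of all 3 compounds. The HSP70 block includes HSPA6, which passed the minimum mean only through its higher T5 and T4 libraries.

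The other lists moved as follows. Of 10 HSP70 and HSP110 genes, 1 rose and 4 fell with CPT, 2 rose and 1 fell with T4, and 1 rose and 2 fell with T5. These 10 include HSPA6, which passed the minimum mean only through its higher T5 and T4 libraries. The counts of this list are in part set by that filter. With equal medians these counts were 3 and 1, 3 and 0, and 4 and 1, and with quantile normalization 0 and 4, 1 and 4, and 1 and 4. Of 10 chaperonin genes 4 rose with CPT, 3 with T4 and 4 with T5, and 0 fell, where 17.9%, 14.5% and 18.2% of all genes rose. With quantile normalization 0 rose and 5 fell with each compound, and with equal medians 8, 10 and 10 rose, where 33.7%, 40.5% and 41.4% of genes rose. Of 17 HSP90 genes and HSP90 co-chaperones 5 rose and 2 fell with CPT, 5 and 4 with T4, and 5 and 6 with T5, and with quantile normalization 1 rose with each compound and 5, 4 and 5 fell, while with equal medians 8, 9 and 9 rose and 1, 2 and 2 fell. TTC4, a co-chaperone with tetratricopeptide repeats, had changes of -3.63 ± 0.27 with T5, -3.57 ± 0.29 with T4 and -1.40 ± 0.24 with CPT. Of 11 other known HSF1 targets 3 rose and 1 fell with CPT, 2 rose and 4 fell with T4, and 3 rose and 6 fell with T5, and with equal medians the splits were 7 and 1, 4 and 2, and 3 and 3, with 4 and 1, 1 and 3, and 0 and 2 with quantile normalization. Of the 3 tested heat shock factor genes and regulators, HSF2 fell by 1.43 ± 0.34 with CPT, by 1.67 ± 0.53 with T4 and by 1.29 ± 0.35 with T5, calls lost with quantile normalization and, for T4 and T5, with equal medians. HSBP1, a binder of HSF trimers, rose with all 3 compounds by 0.63 ± 0.10 to 0.89 ± 0.22. Of 4 tested small heat shock protein genes 2 rose with CPT, 0 rose and 1 fell with T4, and 3 rose and 1 fell with T5, the fall being that of HSPB8, the BAG3 partner, by 1.20 ± 0.35 with T4 and by 1.04 ± 0.32 with T5. Neither fall was called on either other scaling. At matched doses HSPB8 differed by -0.78 ± 0.14 for T4 minus CPT and by -0.70 ± 0.11 for T5 minus CPT. Of 5 prefoldin genes, 1 rose and 1 fell with CPT, 2 and 1 with T4, and 3 and 1 with T5, which became 3 and 0, 4 and 1, and 4 and 1 with equal medians and 1 and 1 for each compound with quantile normalization.

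Total depth is unknown. The size of the smallest steps between low FPKM values put the treated libraries at 0.639 to 0.995 times the depth of DMSO. Bone markers were in part present, 5 of 10 reaching an FPKM of 1 in DMSO, with COL1A1 at 300.6 FPKM and SPARC at 226.9 FPKM. In DMSO COL1A2 was at 0.051 FPKM and SP7, IBSP and TWIST1 were at 0. TWIST1 was listed at 0 in every library, which can be a failed estimate. In DMSO 0 of 6 blood markers reached 1 FPKM, and the highest in any library was 1.81 FPKM, while 4 of 6 epithelial markers reached 1 FPKM in DMSO, with KRT8 at 88.7 FPKM and KRT18 at 124.8 FPKM. The epithelial markers CDH1 and KRT19 were at 0.151 and 0.0781 FPKM. In such bulk RNA, fewer cells with a transcript and less of it per cell cannot be told apart.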

How the data were processed

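U2OS cells were treated for 6 h and their RNA sequenced, with 1 library for DMSO and 1 for each of 5 doses of 3 compounds. The authors deposited 1 matrix of FPKM values per gene and library, per the file headers. The submitters' processing notes name Cufflinks and GSNAP and the build hg19, or GRCh37. Annotation, filters and tool versions were not given in the sources used here. Neither strand nor the selection of mRNA is described in the labels, so overlapping antisense genes cannot be told apart. Left out were 2 inner header lines, 1 incomplete line and 220 repeated lines, leaving 25270 genes, of which 4531 had a listed FPKM of 0 throughout. Library sums ran between 238669 and 285143 FPKM, and 0 pairs of libraries were identical. Total depth is unknown, so no counting interval is given.

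The scale was log2(FPKM + 1), on which changes of low genes appear smaller than they are, and 10600 genes passed the minimum mean of 1 FPKM. From the deposited values, limma 3.58.1 in R 4.3.3 fitted slopes on log2(1 + dose / 0.5 µM), and mean differences at matched doses with dose as a block, with moderated variances that follow expression, 2-sided tests and a Benjamini-Hochberg threshold of 0.05. The scatter around a slope includes curvature, and that around a matched-dose difference includes any change of the difference with dose. The code was checked on simulated data. Python 3.11.15 with pandas 2.3.3, numpy 2.4.6 and matplotlib 3.10.9 made tables and plots. Alternatives were other pseudocounts, filters, scalings and dose scales, 1 fit of all libraries, no dose block, and leaving out each library or dose.

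The members, lists and tests were chosen with earlier results of these data known. Named are all members, up to 3 genes per list and comparison with the largest change, and for each member the 3 genes with the highest Pearson r, passing over pseudogenes. Which of these list genes are described was decided after seeing values. Promoter windows are from RefSeq on GRCh38.p14 and were matched by symbol, with none converted between builds.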

Additional observations from a re-analysis of the deposited data

Results flagged for a closer look

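Each of these members differed between compounds over the 5 matched doses by limma's test of the difference itself, on the log2(FPKM + 1) scale. For T4 minus CPT the differences were -1.57 for BAG3, -0.65 for DNAJB1, -0.23 for HSF1, -0.18 for HSP90AA1, 0.64 for HSPA8 and 0.66 for HSPH1. For T5 minus CPT they were -1.57 for BAG3, -0.52 for DNAJB1, -0.14 for HSP90AA1, 0.72 for HSPA8 and 0.74 for HSPH1. Between 62.5% and 65.2% of all tested genes were called in these comparisons. Only the differences of BAG3, HSPA8 and HSPH1 were called under every alternative run for the matched doses. With equal medians the T4 minus CPT calls of HSF1 (limma adjusted p = 0.209) and HSP90AA1 (limma adjusted p = 0.191) were lost. The T5 minus CPT difference of HSP90AA1 then turned to 0.05. With no filter on low genes both DNAJB1 calls were lost (limma adjusted p = 0.0868 for T4 and 0.0856 for T5). DMSO has 1 library and each dose 1, so no group of replicates could be searched for an outlying library.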

How the results depend on the processing

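The matched-dose comparisons pair libraries by dose. No pairing beyond dose was possible, because each dose has 1 library and the labels carry no replicate numbers. Pseudocounts of 0.1 and 5 and a mean FPKM of at least 5 left every count of called members as it was, as did dose steps, run for the 3 dose trends. The number called with no filter was 0 for the CPT squared term, 4 for the T4 squared term, 4 for T4 minus CPT and 4 for T5 minus CPT. Of all genes then tested 0%, 10.2%, 43.4% and 40.9% were called, in the same order. With equal library medians it was 3 for the CPT squared term, 4 for the T5 trend, 4 for T4 minus CPT, 4 for T5 minus CPT and 3 for T5 minus T4. The shares of all genes called were then 26.2%, 60.2%, 60.5%, 61.4% and 35.7%, in the same order. With quantile normalization, where only the larger changes are listed here, it was 2 for the CPT squared term, 2 for the T4 trend, 3 for the T5 trend and 3 for T4 minus CPT. All genes were then called at 9.19%, 46.3%, 50.5% and 62%, in the same order. On a linear dose scale it was 0 for CPT, where 0 of all 10600 genes were called. It was 2 for T4, where 13.5% of genes were called, and 2 for T5, where 5.36% were called. Leaving out 1 library gave 0 to 6 for the CPT trend, 2 to 4 for T4 and 3 to 6 for T5. The shares of all genes called then ran from 0.00943% to 46.5%, 29.9% to 49.3% and 35.6% to 57.4%. For the squared terms of CPT, T4 and T5 it gave 0 to 2, 1 to 5 and 0 to 4. The shares of all genes were then 0% to 32.4%, 5.96% to 32.9% and 3.27% to 49.4%. Leaving out 1 dose gave 4 to 5 for T4 minus CPT, 4 to 6 for T5 minus CPT and 0 to 0 for T5 minus T4. All genes were then called at 54% to 64.3%, 52.1% to 63.2% and 18.3% to 32.4%. Without 10 µM CPT 1 of 10600 genes was called.

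Signs turned as follows; the cause was not tested. Trends with equal medians were 0.42 (HSPA8) and 0.34 (HSPH1) for T4, and 0.40 and 0.32 for T5. With quantile normalization they were -0.0242 (HSF1), -0.0634 (HSP90AA1) and -0.312 (HSPE1) for CPT, -0.0389 (HSP90AA1) and -0.216 (HSPB1) for T4, and -0.132 (HSP90AA1) and -0.0611 (HSPE1) for T5. HSPB1 with T4 was -0.0906 on a linear scale. Leaving out 1 library, where the sign turned without 20 µM, or for HSPB1 without DMSO, gave -0.465 to 0.0211 (HSPA8), -0.91 to 0.131 (HSPH1) and -0.451 to 0.389 (HSPB1) for T4, and -0.647 to 0.242 (HSPA8) and -1.11 to 0.173 (HSPH1) for T5. T4 minus CPT was 0.0752 (HSPB1) and 0.045 (HSPE1) with equal medians, and 0.0914 and 0.0532 with quantile normalization. T5 minus CPT was 0.0522 (HSP90AA1) and 0.179 (HSPE1) with equal medians and 0.0149 for HSPE1 with quantile normalization. Leaving out 1 dose gave -0.207 to 0.156 (HSPB1) and -0.102 to 0.00271 (HSPE1) for T4 minus CPT, -0.0779 to 0.0234 (HSPE1) for T5 minus CPT and -0.0391 to 0.0413 (BAG3) for T5 minus T4. T5 minus T4 for BAG3 was 0.00907 with a pseudocount of 0.1, 0.10 with equal medians and 0.102 with quantile normalization, which also gave -0.0121 (HSF1), -0.0396 (HSPA8), -0.0571 (HSP90AA1) and -0.0383 (HSPE1). Summing HSPA1A and HSPA1B gave no value, since both are listed at 0. The single line, 1 library per dose, unknown depth and unstated strand limit every result.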

Other observations

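HSPA6, a strictly inducible HSP70 of the human genome, was named after its values were seen. From 0.201 FPKM in DMSO its series was 0.831, 2.04, 2.17, 1.60 and 0.622 FPKM at rising doses of T5. It was 0.503, 1.58, 1.65, 1.14 and 0.361 FPKM with T4, and 0.681, 0.837, 0.825, 0.615 and 0.745 FPKM with CPT. All 15 treated libraries were above DMSO, and the T5 and T4 series peaked at 5 µM. It passed the minimum mean only through its higher T5 and T4 libraries, so no test of it is given on its own. The counts of the HSP70 and HSP110 list do include it. Its level is uncertain because HSPA7 is a near-identical copy.

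GRPEL2, the second exchange factor of mitochondrial HSP70, had 9.85 FPKM in DMSO and then 19.2, 26.1, 20.01, 12.2 and 4.69 FPKM at rising doses of T5. It had 15.7, 22.5, 16.5, 8.05 and 3.855 FPKM with T4, and 18.4, 29.5, 29.2, 26.9 and 26.2 FPKM with CPT. It was higher in T5 than in T4 by 0.30 ± 0.06 (limma adjusted p = 0.0096). RGS2, a regulator of G protein signalling in the list of HSF1 targets, had 2.75 FPKM in DMSO and then 9.93, 18.7, 17.2, 11.6 and 2.65 FPKM at rising doses of T5. It had 6.61, 13.4, 11.1, 5.38 and 2.34 FPKM with T4, and 11.5, 15.7, 13.5, 14.7 and 16.6 FPKM with CPT. It was higher in T5 than in T4 by 0.53 ± 0.11 (limma adjusted p = 0.0125).

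Besides HSPA1A and HSPA1B, the chaperone genes BAG6, HSPA1L, PFDN6 and HSPA4L were listed at 0 in all 16 libraries. BAG6, HSPA1L and PFDN6 lie on chromosome 6, as do HSPA1A and HSPA1B, and HSPA4L lies on chromosome 4. These zeros can also be failed estimates and do not show that the genes are silent.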
